A study of Homo sapiens with 4 samples.

Results

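The human histone gene cluster on chromosome 6 was examined in maps of open chromatin from HCT116 cells. Its members were the RefSeq protein-coding genes that lie between 25.5 and 28.5 Mb of chromosome 6 (GRCh38) and whose symbols start with H1-, H2AC, H2BC, H3C or H4C. This gave 55 genes of the 19974 protein-coding genes on chromosomes 1 to 22 and X: 6 for linker histone H1, 12 for H2A, 15 for H2B, 10 for H3 and 12 for H4. They lie in 4 clusters separated by more than 200 kb, with 2, 32, 5 and 16 genes in map order, over a span of 2168 kb.

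HCT116 is an established epithelial line from a human colorectal carcinoma. Per the labels, cells were transduced with a pSin lentivirus that carried either no insert (control) or the full FOXD2 coding sequence, and both lines were kept under puromycin. FOXD2 is a transcription factor of the forkhead family. Each group has 2 ATAC-seq libraries, and no label says that they were grown as separate cultures, so their spread can be technical. ATAC-seq uses the Tn5 transposase to cut and tag accessible DNA, and each library comes as its own list of called intervals.

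Replication-dependent histone genes are short, lack introns and are transcribed mainly in S phase, when newly made DNA has to be packaged. Many H2A and H2B genes stand head to head and share 1 promoter region, and the nuclear protein NPAT works at these promoters in structures called histone locus bodies. Some members are not of this general kind: H2AC1, H2BC1 and H1-6 encode histones known from the male germ line.

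A member was called open in a library where an interval lay within 1000 bp of its gene body, and closed in all 4 libraries where none did. The strength of an interval is given as the authors' −log10 q, the significance of its summit over local background. The lists differ in their number of intervals, so the order between libraries was read from the percentile of each interval within its own list, where 100 is the strongest. Raw −log10 q and fold are printed as the authors' values of single intervals, and no order between libraries is read from them. Presence and rank were the readouts, since no read counts were used. With 2 libraries a group, no exact two-sided permutation test can give a p below 0.333, so all differences between groups below are descriptions of these 4 libraries.

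The sequences between head-to-head genes and before start sites show what open and closed members have in common and where they differ. They are taken from the RefSeq promoter windows of GRCh38.p14 and run 5′ to 3′ on the strand given. Capitals mark matches, on either strand, to 5 short motifs: TATAAA (the TATA box), CCAAT, ATTTGCAT (the octamer bound by POU2F1), AAACACA (the H1 box) and TGTTTAC (the core forkhead motif). Matches that touch or overlap run together.

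The first 4 are the whole gaps between H2A and H2B genes, the first pair closed in all 4 libraries and the last pair open in all 4.
H2AC1-H2BC1 (chr6:25726563-25726776, + strand): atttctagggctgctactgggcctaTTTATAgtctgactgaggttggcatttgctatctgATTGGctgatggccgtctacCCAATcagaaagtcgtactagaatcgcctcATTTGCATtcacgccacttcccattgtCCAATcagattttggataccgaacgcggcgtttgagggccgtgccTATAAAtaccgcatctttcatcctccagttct
H2BC8-H2AC8 (chr6:26216689-26216920, + strand): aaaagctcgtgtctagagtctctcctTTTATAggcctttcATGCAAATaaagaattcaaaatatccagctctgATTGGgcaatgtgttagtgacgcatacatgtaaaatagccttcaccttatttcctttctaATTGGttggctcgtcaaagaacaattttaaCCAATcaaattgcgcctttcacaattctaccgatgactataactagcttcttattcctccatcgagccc
H2BC11-H2AC11 (chr6:27132796-27133042, + strand): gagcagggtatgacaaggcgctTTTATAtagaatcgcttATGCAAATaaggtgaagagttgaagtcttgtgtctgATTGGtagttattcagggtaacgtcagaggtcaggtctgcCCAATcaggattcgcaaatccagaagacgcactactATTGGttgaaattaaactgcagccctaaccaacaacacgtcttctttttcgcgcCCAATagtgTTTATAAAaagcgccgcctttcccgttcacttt
H2AC15-H2BC15 (chr6:27838376-27838568, + strand): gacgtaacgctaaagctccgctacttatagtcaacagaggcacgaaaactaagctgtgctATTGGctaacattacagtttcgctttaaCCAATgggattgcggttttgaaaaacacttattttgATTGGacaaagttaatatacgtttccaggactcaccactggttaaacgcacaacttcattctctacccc
The gap between H2AC1 and H2BC1 has 214 bp and that between H2BC8 and H2AC8 has 232 bp. Both hold a TATA box match, CCAAT and the octamer, yet neither had an interval within 1000 bp in any library. The gap between H2BC11 and H2AC11, 247 bp long and open in all 4 libraries, holds the same 3 motifs. The gap between H2AC15 and H2BC15 is the shortest, at 193 bp, and holds CCAAT but neither TATAAA nor the octamer, although it was open in all 4 libraries and ranked among the stronger members.

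The next 4 are the 150 bases before the start sites of H1 genes, of which H1-4 and H1-2 were open in all 4 libraries and H1-5 and H1-6 in none.
H1-4 (chr6:26156179-26156328, + strand): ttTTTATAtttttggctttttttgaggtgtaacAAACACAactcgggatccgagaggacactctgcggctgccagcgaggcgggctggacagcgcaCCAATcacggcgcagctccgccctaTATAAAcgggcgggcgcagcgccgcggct
H1-2 (chr6:26056471-26056620, - strand): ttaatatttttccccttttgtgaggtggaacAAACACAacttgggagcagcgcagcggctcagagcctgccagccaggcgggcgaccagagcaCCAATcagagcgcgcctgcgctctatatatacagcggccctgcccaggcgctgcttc
H1-5 (chr6:27867589-27867738, - strand): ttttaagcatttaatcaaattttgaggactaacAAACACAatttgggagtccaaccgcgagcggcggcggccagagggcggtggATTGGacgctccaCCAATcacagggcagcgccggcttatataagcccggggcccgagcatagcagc
H1-6 (chr6:26108136-26108285, - strand): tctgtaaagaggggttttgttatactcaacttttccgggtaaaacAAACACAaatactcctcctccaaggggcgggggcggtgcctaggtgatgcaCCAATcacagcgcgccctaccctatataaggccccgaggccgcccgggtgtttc
All 4 hold the H1 box upstream and CCAAT nearer the start, whether open or closed.

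The last 6 are the 150 bases before the starts of 4 H4 genes and 2 H3 genes. H4C11, H4C12 and H3C2 were open in all 4 libraries, and H4C6, H4C7 and H3C8 in none.
H4C11 (chr6:27823942-27824091, + strand): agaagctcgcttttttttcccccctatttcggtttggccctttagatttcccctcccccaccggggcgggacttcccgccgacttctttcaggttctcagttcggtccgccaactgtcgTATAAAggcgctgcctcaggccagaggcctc
H4C12 (chr6:27831561-27831710, - strand): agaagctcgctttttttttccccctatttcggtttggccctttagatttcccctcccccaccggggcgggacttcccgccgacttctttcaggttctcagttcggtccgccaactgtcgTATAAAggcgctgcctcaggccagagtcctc
H4C6 (chr6:26240243-26240392, + strand): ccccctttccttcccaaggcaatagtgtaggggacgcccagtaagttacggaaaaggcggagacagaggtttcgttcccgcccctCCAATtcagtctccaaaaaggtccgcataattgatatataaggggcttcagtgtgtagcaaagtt
H4C7 (chr6:26246997-26247146, - strand): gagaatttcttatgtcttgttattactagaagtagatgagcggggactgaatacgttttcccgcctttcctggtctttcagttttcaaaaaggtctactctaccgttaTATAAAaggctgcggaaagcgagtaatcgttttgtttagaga
H3C2 (chr6:26032100-26032249, - strand): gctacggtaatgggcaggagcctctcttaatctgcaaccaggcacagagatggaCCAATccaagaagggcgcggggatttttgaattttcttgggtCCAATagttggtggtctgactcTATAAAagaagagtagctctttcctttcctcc
H3C8 (chr6:26271414-26271563, - strand): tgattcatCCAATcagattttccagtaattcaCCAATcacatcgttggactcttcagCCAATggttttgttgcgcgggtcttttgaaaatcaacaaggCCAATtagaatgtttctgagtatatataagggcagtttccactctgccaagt
The H4C11 and H4C12 sequences are identical at 148 of 150 positions, the closest match among the H1, H3 and H4 members compared this way. The next closest pair, H4C5 and H4C8, is identical at 115 of 150 positions. Reads of near-identical copies can be hard to place, and the authors' filter on ambiguous reads was not given in the sources used.

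Most of the histone genes were open, 34 of them in every library. An interval lay within 1000 bp of 34 of the 55 members (61.8%) in all 4 libraries, against 77.2% of all protein-coding genes. Histone genes are short, and the stretch searched for an interval is shorter at a short gene. The part of gene length in this difference was not tested. Among the 50 members of at most 2000 bp, 29 were open in all 4 libraries, against 28% of the 1249 protein-coding genes of that length. Another 19 members (34.5%) had no interval in any library, against 13.4% of all protein-coding genes and 56.7% of the short ones. Only 2 members, H1-3 and H4C9, were open in some libraries and not in others.

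By class, H2A had the largest share of open members and H1 the smallest. Of the 12 H2A genes, 9 were open in all 4 libraries and 3 in none. Of the 15 H2B genes, 9 were open and 6 closed. H3 had 6 open and 4 closed among its 10 genes, and H4 had 8 open, 3 closed and H4C9 between, among its 12. Of the 6 H1 genes, H1-2 and H1-4 were open, H1-1, H1-5 and H1-6 were closed, and H1-3 lay between. These classes are small, and the shares were not tested against each other.

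**Figure D1:**
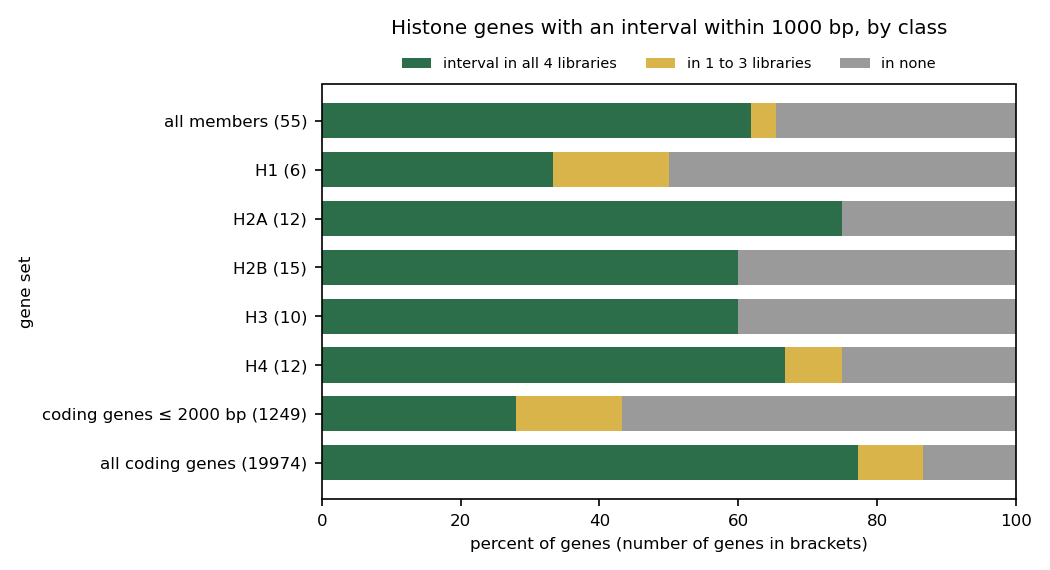
Bars give the percent of genes with an interval within 1000 bp in all 4 libraries, in 1 to 3 of them, or in none, for the 55 members, each histone class, the 1249 protein-coding genes of at most 2000 bp and all 19974. The members lie between the short genes (28% in all 4) and all genes (77.2%).

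The closed members came in runs along the chromosome. Windows of members less than 2000 bp apart overlap, so such neighbours tend to share a call by construction. H2AC1 and H2BC1 form the first of the 4 clusters on their own, and neither they nor the next member, H1-1, had an interval. H2BC3 and H3C3 were closed side by side, and so were H2BC8 and H2AC8. The run with the most genes held 6 over 33.0 kb: H4C6, H4C7, H3C7, H2BC9, H3C8 and H2BC10. Another run held H2AC16, H1-5, H3C11 and H4C13 over 8.22 kb, with no interval in it in any library. H1-6 and H2BC6 were closed between open neighbours. H2AC1, H2BC1 and H1-6, the members known from the male germ line, were thus all closed, alongside 16 others.

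**Figure D2:**
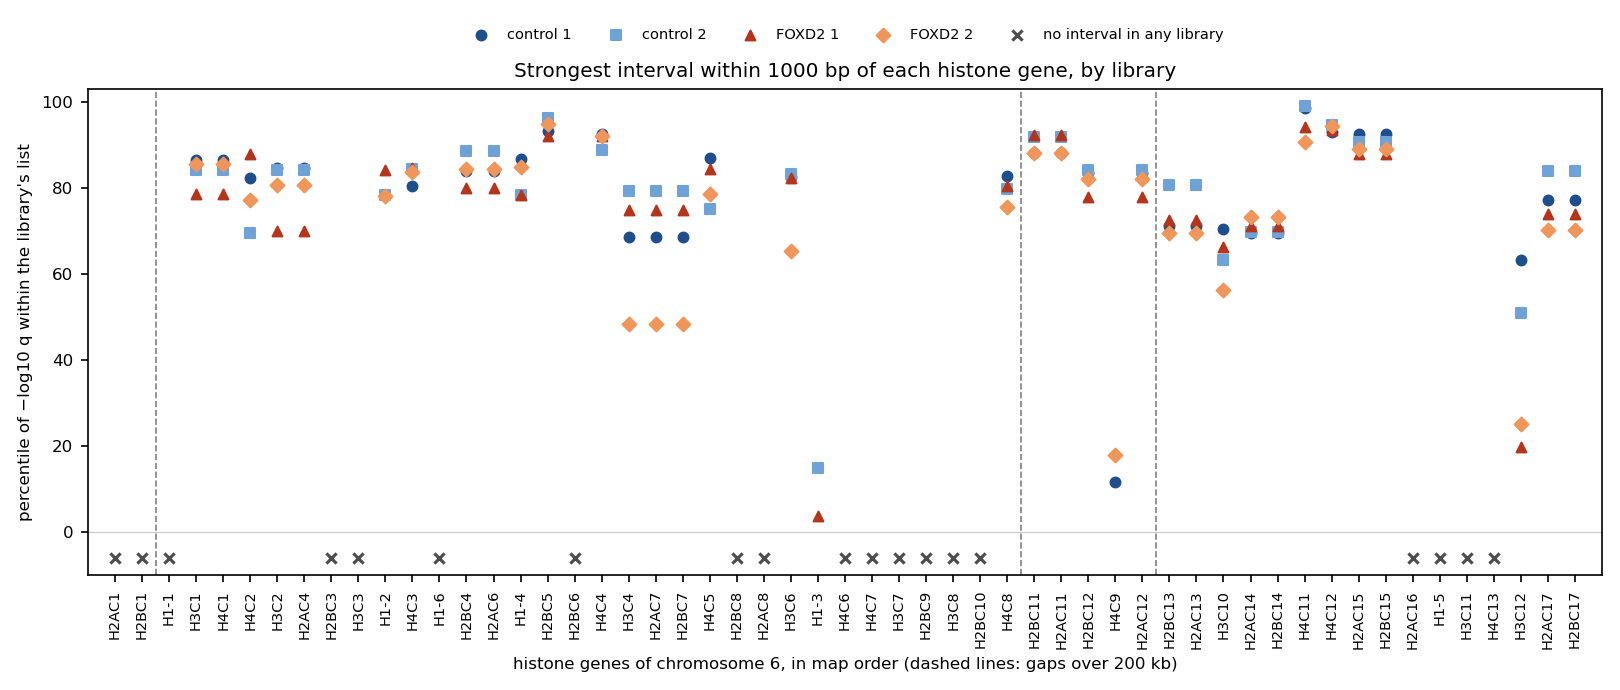
Each point is the strongest interval within 1000 bp of a member in 1 library, as its percentile of −log10 q within that library's list, with members in map order and dashed lines at gaps over 200 kb; crosses mark the 19 members with no interval in any library. Open members mostly lie above the 60th percentile, and crosses fall side by side in runs.

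At the linker histone genes the open members ranked near the middle of the cluster. H1-4 (chr6:26156329-26157115) had percentiles of 86.9 and 78.4 in controls 1 and 2 and of 78.4 and 85.0 in FOXD2 libraries 1 and 2. H1-2 (chr6:26055740-26056470) had 78.4 and 78.4 in the controls against 84.1 and 78.3 in the FOXD2 libraries. The groups overlapped at both genes. H1-3 had an interval in control 2 (−log10 q of 5.26) and FOXD2 1 (3.39) and none in the other 2 libraries, so its presence followed neither group.

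Among H2A and H2B genes, members in a head-to-head pair shared 1 interval and therefore 1 value. H2BC5 (chr6:26158121-26171349) ranked highest of the H2B genes, with percentiles of 93.2 and 96.2 in the controls and of 92.1 and 94.9 in the FOXD2 libraries. Its strongest interval, at chr6:26171732-26172478, lies beyond the far end of this long gene and not at its start. The pair of H2BC11 and H2AC11 had 88.1 and 92.0 in the controls against 92.5 and 88.3. The pair of H2AC15 and H2BC15 had 92.6 and 90.7 in the controls against 87.8 and 89.0, with both FOXD2 values below both controls. The lowest-ranking H2A and H2B genes were H2AC7 and H2BC7, which share an interval with H3C4. Their percentiles were 68.7 and 79.4 in the controls against 75.0 and 48.5 in the FOXD2 libraries, and the groups overlapped.

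H3 genes had the lowest class median, a percentile of 78.5 over the controls and of 67.8 over the FOXD2 libraries. H3C12 (chr6:27890315-27890826) had the lowest mean percentile of the 34 open members, 39.8, and H3C10 (chr6:27810051-27810536) came next at 64.1. H3C10 had 70.6 and 63.2 in the controls against 66.4 and 56.3 in the FOXD2 libraries, so its groups overlapped. H3C4, H2AC7 and H2BC7 followed with a mean of 67.9. H3C4 has another start window within its body, and the interval there, at chr6:26196931-26197432, was called in both controls (−log10 q of 9.47 and 5.04) and in neither FOXD2 library.

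H4 genes held 3 of the 5 highest mean percentiles. H4C11 (chr6:27824092-27824480) ranked first at 95.7, ahead of H2BC5 at 94.1, H4C12 (chr6:27831174-27831560) at 93.9 and H4C4 (chr6:26188710-26189112) at 91.4. H2BC11 and H2AC11 shared the next mean, 90.2. H4C12 had percentiles of 92.9 and 94.7 in the controls and of 93.4 and 94.5 in the FOXD2 libraries, and H4C4 had 92.7 and 88.8 against 92.1 and 92.1. The groups overlapped at both. H4C9, which lies inside the long H2BC12 gene, had an interval in control 1 (−log10 q of 4.83) and FOXD2 2 (5.64) only.

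Intervals at the histone genes were narrower and weaker than at open genes in general. The median percentile over open members was 83.4 and 84.1 in controls 1 and 2 and 78.6 and 80.6 in FOXD2 libraries 1 and 2. Over all open protein-coding genes it was 89.8, 88.9, 90.4 and 87.5 in the same order. The authors' fold enrichment, the height of the summit over local background, had medians of 6.42, 6.38, 5.93 and 6.19 at members and of 9.91, 9.67, 9.09 and 8.37 at all open genes. Median widths were 656, 656.5, 636 and 611 bp against 927, 879, 892 and 833 bp. A long gene offers more intervals to choose its strongest from, so these medians do not compare like with like and were not tested.

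No member opened or closed between the groups. Open in both FOXD2 libraries and neither control were 0 members, against 0.441% of all protein-coding genes and 0.4% of those up to 2000 bp long. Open in both controls and neither FOXD2 library were also 0, against 0.711% and 1.44%. Such differences were thus rare among all genes too. Each library had exactly 35 open members, reached through 24 distinct intervals.

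The rank of the open members was lower in FOXD2 libraries more often than it was higher. Both FOXD2 percentiles lay below both control percentiles at 11 of the 34 open members (32.4%), against 19.5% of all 15415 protein-coding genes open in all 4 libraries. Both lay above at 2 members (5.88%), against 14.3%. Among the 29 open members of at most 2000 bp, 9 ranked lower and 2 higher, against 22.3% and 12.9% of open genes of that length. Of the 24 other protein-coding genes in the same 3 Mb that were open in all 4 libraries, 8 ranked lower and 3 higher. The lower ranks were thus not confined to histone genes. The median change in percentile from control to FOXD2 was -3.51 over the members and -0.477 over all open genes. The difference was below 0 at 24 members (70.6%), against 56.2% of all open genes. Members that share an interval are not independent: the 34 members come down to 23 distinct sites, of which 7 ranked lower and 1 ranked higher. Leaving out a library makes overlap rarer by construction. The members ranking lower then numbered 20 without control 1, 18 without control 2, 19 without FOXD2 1 and 16 without FOXD2 2. Those ranking higher numbered 6 without either control, 2 without FOXD2 1 and 7 without FOXD2 2. No share over all open genes is given for these counts, so they cannot be set against the 19.5% and 14.3%.

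The largest drop was at H3C12, whose percentiles were 63.3 and 51.0 in the controls against 19.9 and 25.2 in the FOXD2 libraries. Its −log10 q was 17.1 and 12.1 in the controls against 5.34 and 6.53 in the FOXD2 libraries. H3C2 and H2AC4 are neighbours whose windows hold the same intervals, and the strongest had 84.6 and 84.3 in the controls against 70.0 and 80.6. It lay at H3C2 except in FOXD2 1, where it lay at H2AC4. The region at H3C2 (chr6:26031601-26032354) on its own had 84.6 and 84.3 against 65.5 and 80.6, and that at H2AC4 (chr6:26033087-26034046) had 74.5 and 78.7 against 70.0 and 68.0. Both regions thus ranked lower in both FOXD2 libraries. H3C6 (chr6:26224178-26227473) had 82.6 and 83.2 against 82.3 and 65.4, so that FOXD2 1 lay just under the controls and only FOXD2 2 stood apart. H2AC17 and H2BC17, a head-to-head pair, had 77.2 and 84.0 against 74.0 and 70.2. The others that ranked lower in both FOXD2 libraries were H4C11, H2AC15, H2BC15, H2BC12 and H2AC12.

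At H4C11, the strongest member, both FOXD2 libraries ranked below both controls by −log10 q and by fold. Its −log10 q was 104 and 105 in the controls against 58.5 and 41.1 in the FOXD2 libraries, at percentiles of 98.7 and 99.1 against 94.1 and 90.8. The authors' fold was 14.1 and 13.6 in the controls against 11.2 and 10.1 in the FOXD2 libraries, at fold percentiles of 96.7 and 96.4 against 93.2 and 91.4. H4C12 has 148 of the same 150 bases before its start. Its fold was 11.0 and 12.0 in the controls against 12.2 and 11.4 in the FOXD2 libraries, at fold percentiles of 88.7 and 92.3 against 95.7 and 95.6. H4C12 thus ranked higher in both FOXD2 libraries by fold, while its groups overlapped by −log10 q. The difference between the 2 genes was not tested. By −log10 q, only H2AC14 and H2BC14, a pair that shares 1 interval, ranked higher in both FOXD2 libraries, with 69.6 and 69.9 in the controls against 71.1 and 73.2.

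The excess of lower over higher ranks did not hold when intervals were ranked by fold enrichment. On that measure 4 members ranked lower in both FOXD2 libraries, against 18.1% of all open genes, and 8 ranked higher, against 17.9%. More members thus ranked higher than lower by fold. The 8 were H1-2, H4C3, H4C4, H2BC12, H2AC12, H2AC14, H2BC14 and H4C12. Lower by both measures were 4 members: H3C2, H2AC4, H4C11 and H3C12. The fold percentiles of H3C12 were 14.6 and 4.62 in the controls against 1.76 and 2.69 in the FOXD2 libraries. All of these lie in the weakest part of their lists, where the groups are close. H2BC12 and H2AC12 ranked lower by −log10 q and higher by fold. Their fold percentiles were 61.2 and 61.4 in the controls against 62.2 and 61.7 in the FOXD2 libraries, a gap of under 1 point between the nearest values.

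**Figure D3:**
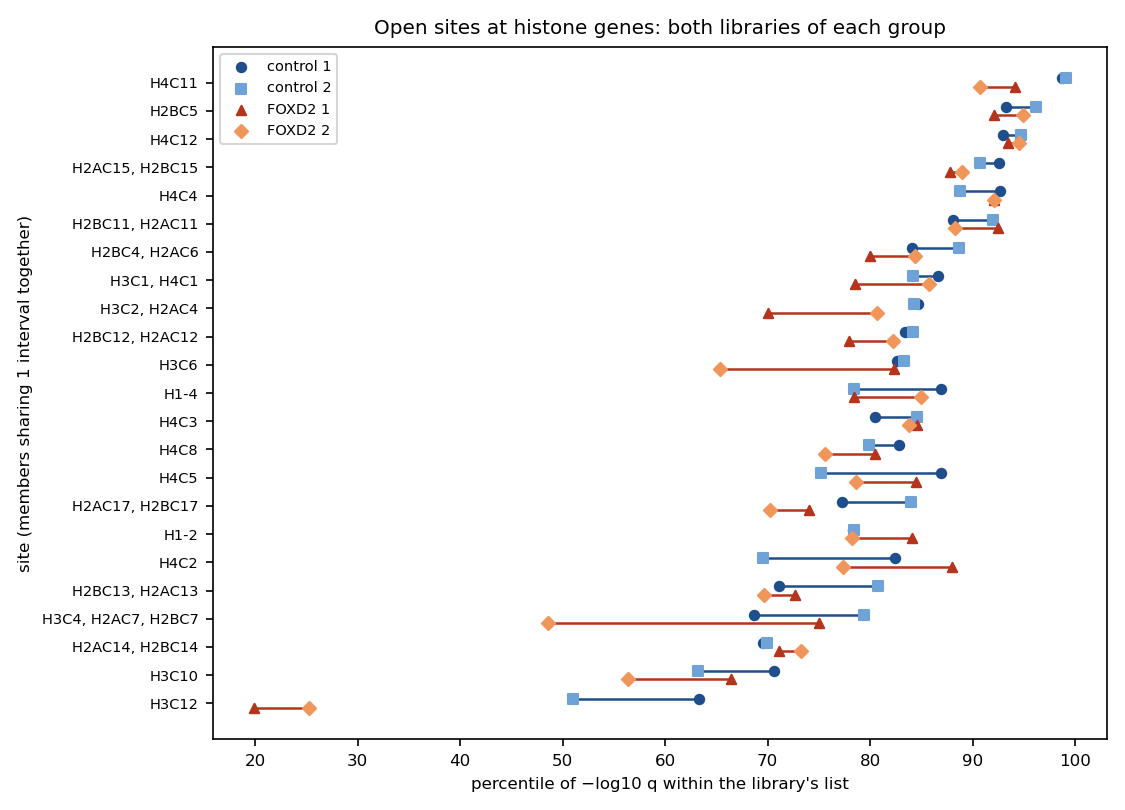
Each row is 1 of the 23 distinct open sites, and points give the percentile of −log10 q in each of the 4 libraries, with a line joining the libraries of a group. The groups lie furthest apart at H3C12, and at 15 sites they overlap.

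Single intervals covered pairs of neighbouring members at close to the share seen over all protein-coding genes. Of 20 pairs of neighbouring members 193 to 1872 bp apart, 7 lay under 1 interval that touched both gene bodies in all 4 libraries (35%), against 32.1% of neighbouring protein-coding genes up to 2000 bp apart. With at least 100 bp of each gene body required, 3 pairs were joined in all 4 libraries. The 7 pairs joined at 1 bp were each an H2A gene beside an H2B gene. Of the 10 such pairs, 193 to 247 bp apart, 7 were joined in all 4 libraries, against 63.6% of all neighbouring genes under 300 bp apart. H2BC13 and H2AC13 were joined in control 2 and FOXD2 1, and the closed pairs H2AC1 with H2BC1 and H2BC8 with H2AC8 were joined in none.

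The widest joined intervals lay elsewhere. The interval over H1-4 and the start of H2BC5, whose bodies are 1005 bp apart, was 2040 bp wide in control 1, 1224 bp in FOXD2 1 and 2083 bp in FOXD2 2. In control 2 the pair was not joined. H3C1 and H4C1, 690 bp apart, were joined by an interval of 1730 bp in control 2 and of 1698 bp in FOXD2 2. Whether an interval bridged these pairs therefore followed neither group.

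At the open members, most summits lay just before the start site, with exceptions. An interval covered the start window, from 250 bp before to 50 bp after the start, in all 4 libraries at 30 of the 50 members with a window in the RefSeq table (60%). The share was also 60% over all 15812 protein-coding genes with a window. No library had one at 19 of the 50, against 30.7%. H4C1, H4C3, H2AC12, H3C11 and H3C12 have no window there. The median distance of the summit from the start was -73.4 bp, the minus sign meaning before it. Over all genes with an open window it was -60 bp. At 7 members the mean summit lay past the start: H3C1, H1-2, H1-4, H4C4, H4C11, H4C12 and H2AC17. The H1 median was 128 bp past it, from H1-2 and H1-4 only. At H3C1 and H1-2 the distance came from control 2, whose summit lay 1165 and 925 bp past the start, against -27 to 10 bp in the other libraries. The mean summit lay within 250 bp of the start at 28 of the 30 (93.3%), against 85.2% of all genes with an open window. Head-to-head genes share a summit, and their gaps were at most 247 bp. A summit in such a gap therefore lies within 250 bp of both starts.

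**Figure D4:**
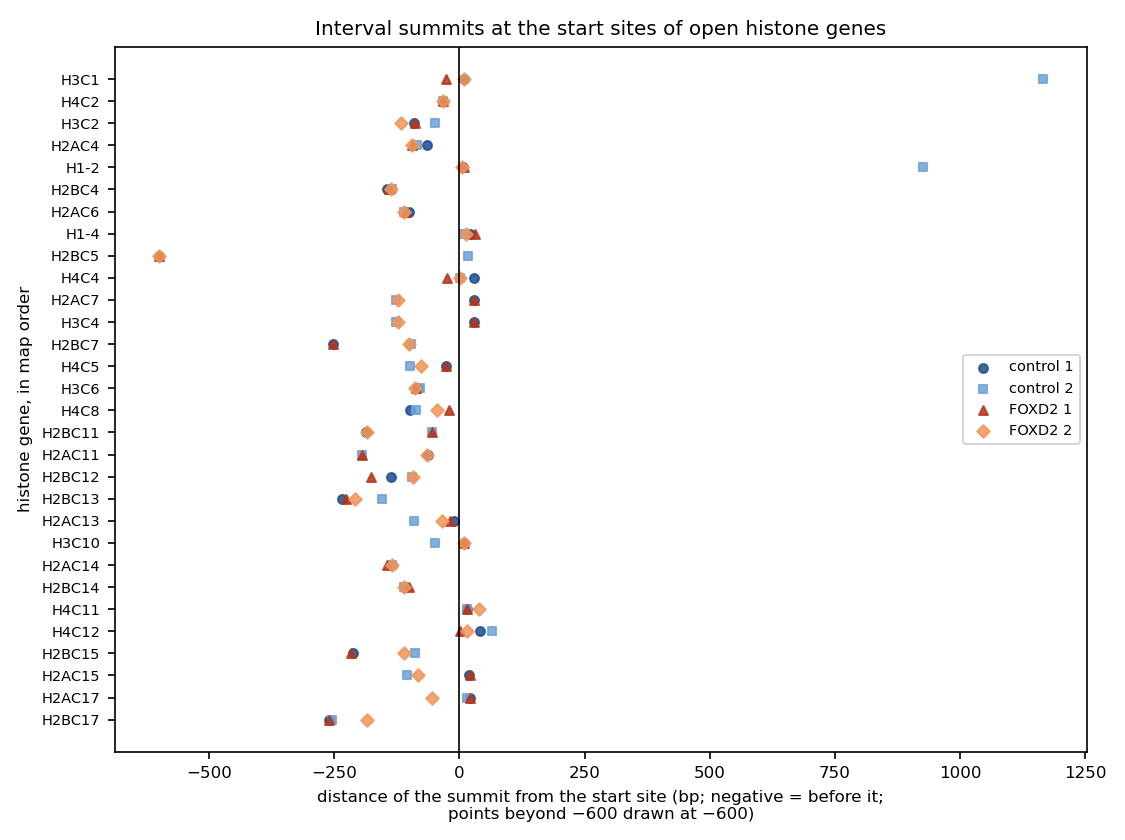
Points give the distance in bp of the interval summit from the start site in each library, for the 30 members with an interval over the start window in all 4 libraries; points beyond the left edge are drawn at it. Most lie from 250 bp before the start to 50 bp after it. The H2BC5 points at the edge are summits of an interval that also covers H1-4.

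The median share of G and C in the start window was 42.3% over the 50 members, against 62.7% over all protein-coding genes with a window. It was 42.5% at open and 41.7% at closed members. The ratio of observed to expected CpG dinucleotides had medians of 0.783 at open and 0.700 at closed members. Windows of head-to-head genes overlap, and those of H2AC7 and H3C4 are the same, so a motif match can count at several members. TATAAA was found in 33 of the 50 windows (66%), against 9.75% of all genes. It was in 22 of the 30 windows of open members and in 10 of the 18 of closed ones. CCAAT was in 43, among them all 40 windows of H1, H2A, H2B and H3 genes and 3 of the 10 of H4 genes. It was in 24 of the 30 open and 17 of the 18 closed windows.

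Other motifs went with the class. The octamer was in 21 of the 26 H2A and H2B windows, against 1.72% of all genes, and over all classes in 13 of the 30 open and 9 of the 18 closed windows. The H1 box was in 6 of 6 H1 windows, against 4.28%. The forkhead core was in 2 of the 50, against 2.68% of all genes, and these were the overlapping windows of H2AC1 and H2BC1, both closed in all 4 libraries. At H4 genes, CCAAT was in 0 of the 6 open windows and in 2 of the 3 closed ones, H4C6 and H4C13. These are counts of letters in a window, chosen for description, and none was tested. Because windows overlap, they count members and not separate stretches of DNA.

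**Figure D5:**
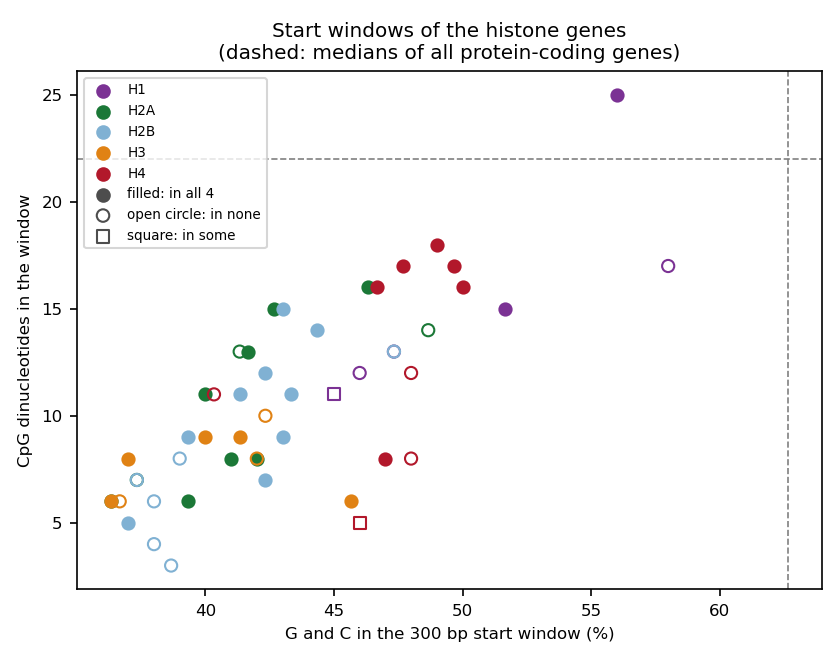
Each point is the 300 bp start window of 1 of the 50 members, with its percent of G and C against its number of CpG dinucleotides, coloured by class; filled circles are open in all 4 libraries, open circles in none and squares in some. Filled and open circles mix, and all lie left of the median of all genes at 62.7%.

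The DNA between the members also held open chromatin, which was largely shared by all 4 libraries in the wide gaps but not inside the clusters. Merging overlapping intervals gave 190 regions from the first to the last member, of which 119 were in all 4 libraries (62.6%), against 32.5% of all merged regions. Of 153 regions more than 1000 bp from every member, 137 lay in the wide gaps between the clusters, and 89 of those were in all 4 libraries. The other 16 lay inside the clusters, with 3 in all 4 libraries (18.8%) and 8 in 1 library only. Together, 92 of the 153 regions were in all 4 libraries. The strongest of these on average, at chr6:25992415-25993145 beside the noncoding gene LINC02980, had percentiles of 97.8 and 99.9 in the controls and of 99.8 and 99.3 in the FOXD2 libraries. It lies 23887 bp from closed H1-1. The next 4 were at ZNF322 (chr6:26659311-26660075), PRSS16 (chr6:27250879-27252153), a place near no annotated gene (chr6:26341348-26342137) and ZNF184 (chr6:27472275-27473521), with mean percentiles of 96.4, 95.4, 93.9 and 91.8.

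Most of the shared regions between members lay at transfer RNA genes, which RNA polymerase III transcribes and which are dense in this stretch. Of the 153 regions, 82 lay within 1000 bp of a tRNA gene and of no other protein-coding gene, and 62 of those were in all 4 libraries. Within 1000 bp of another protein-coding gene lay 27, of which 16 were in all 4 libraries, and near neither lay 44, of which 14 were. Of the 98 tRNA genes in the span, 57 had an interval within 100 bp in all 4 libraries (58.2%), against 55.1% of the 443 on all these chromosomes.

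Regions that differed between the groups were few. In the whole span 8 of the 190 regions were called in both FOXD2 libraries and neither control, against 3.89% of all regions, and 3 were called in both controls and neither FOXD2 library, against 3.87%. At members there was 1 of each: the region at chr6:26119026-26119259 inside the long H2BC4 gene was called in both FOXD2 libraries (−log10 q of 12.4 and 10.1), and the other was that inside H3C4.

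Inside the 4 clusters, 16 regions lay between members, and 8 of them were called in 1 library only, against 40.8% of all regions. Called in both controls and neither FOXD2 library were 0 of them, against 3.87% of all regions. Called in both FOXD2 libraries and neither control were 3 of them, against 3.89%. The first, at chr6:26243173-26243477, lies between closed H4C6 and H4C7, at percentile 70.4 in FOXD2 1 and 19.1 in FOXD2 2. The second, at chr6:26268994-26269235, lies 1683 bp from closed H3C8, at percentiles 16.3 and 39.0. The third, at chr6:27862618-27862951, lies 2366 bp from closed H2AC16, at percentiles 11.5 and 9.54. All but the first value are in the weaker part of their lists, and the groups differ here by whether an interval was called at all.

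Because of these 3 regions, the count of members that differed depended on the distance allowed. Within 5000 bp, 37 members were open in all 4 libraries, against 81.2% of all protein-coding genes, and 9 were closed, against 10.3%. At that distance 6 members were open in both FOXD2 libraries and neither control: H4C6, H4C7, H3C8, H2BC10, H2AC16 and H1-5. That compares with 0.461% of all protein-coding genes and 1.36% of those up to 2000 bp long. The 6 genes stand for 3 regions only, since each region lies near 2 of them. In the other direction there were 0 members, against 0.591%.

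Histone genes elsewhere and the genes that serve them were open nearly throughout. Over all protein-coding genes, 77.2% were open in all 4 libraries. Of 15 S-phase histone genes on chromosome 1 and elsewhere, 14 were open in all 4 libraries and H3-4 in none. H2AC20, H2AC21 and H2BC21 had the same values in every library, as did H2AC25 and H2BC26, so these are not all separate sites. All 11 replacement histone genes, which are made outside S phase as well, were open in all 4. So were all 13 genes for histone gene transcription and for processing of the 3′ end of histone mRNA. Of the 14 open S-phase genes elsewhere 1 ranked lower in both FOXD2 libraries and 3 ranked higher, and of the replacement histone genes 3 ranked lower and 1 higher. In the last list 0 ranked lower and 3 ranked higher, and the shares over all open genes are the 19.5% lower and 14.3% higher given above. Those 3 genes were POU2F1, which binds the octamer, SLBP, which binds the histone mRNA stem-loop, and ERI1, a nuclease that acts on that end. SLBP had percentiles of 97.5 and 96.1 in the controls and of 99.2 and 98.0 in the FOXD2 libraries. NPAT had 99.2 and 94.5 against 98.0 and 97.3, and its groups overlapped. Of the 35 other protein-coding genes in the same 3 Mb, 24 were open in all 4 libraries, 8 of these ranked lower in both FOXD2 libraries and 3 ranked higher.

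The 4 lists held 64675 to 82739 intervals on the chromosomes used, fewest in FOXD2 2. The FOXD2 gene had an interval in all 4 libraries. Reads from the cell's own gene and from an integrated coding sequence cannot be told apart there, so it does not check the labels. Of the markers listed, 8 of 8 epithelial genes were open in all 4 libraries, as were 2 of 4 leukocyte, 3 of 3 endothelial and 2 of 3 fibroblast genes, so an interval near a gene did not separate these cell types. Of the epithelial markers 5 ranked lower in both FOXD2 libraries and 1 ranked higher, against 19.5% and 14.3% of all open genes. Of the endothelial markers 0 ranked lower and 2 higher, of the leukocyte markers 0 and 1, and of the fibroblast markers 1 and 0. The part of these shifts in the histone gene ranks was not tested.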

How the data were processed

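ATAC-seq intervals of 2 control and 2 FOXD2 libraries were used. Per the submitters' processing notes, the authors used MACS2 2.2.7.1, Bowtie2 2.3.4.1 and cutadapt 3.4, with bedtools and Picard, on hg38. Their order and options were not given in the sources used. Each deposited interval carries the authors' fold over background (a ratio), −log10 p, −log10 q and a score; the −log10 p and score were not used. Read depth is unknown.

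Between 0.208% and 0.251% of intervals, on other contigs, were left out. Gene positions and start windows came from RefSeq (GRCh38.p14), which matched 50 of 55 members to a window. Percentiles were average ranks within a list, intervals overlapping by 1 bp were merged, and the calls were tested on simulated lists, with Python 3.11.15, pandas 2.3.3 and numpy 2.4.6. No p-value was computed.

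The members and lists were chosen with earlier results of these data known. Named were all closed and variable members, the 5 highest and lowest open members, the 5 largest drops and rises without overlap, the 5 widest joined intervals and the 5 highest shared regions between genes. Other members named for a value, and the printed sequences, were chosen after their values were seen. Same-numbered libraries were not treated as pairs. The correlation of their deviations was 0.0858 over 15415 genes. Alternatives covered distance, threshold, list length, ranked value, single libraries and replicate block.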

Additional observations from a re-analysis of the deposited data

How the results depend on the processing

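The count of 34 members open in all 4 libraries, the 19 closed members and the 0 members that were open in 1 group alone stayed the same without each library in turn and with intervals of −log10 q of 5 or more. Of 73 alternatives computed, 61 stayed within 1.5 times the first count. Within 5000 bp, 9 members were closed and 6 were open in FOXD2 libraries alone. The ranks depended more on the choices made. By fold enrichment, 4 members ranked lower and 8 higher in both FOXD2 libraries. With lists of equal length, 1 ranked higher. Without each library in turn, 16 to 20 ranked lower and 2 to 7 higher; the lower count was 20 without control 1, 18 without control 2 and 19 without FOXD2 1. With fewer libraries, groups overlap less often by construction. With the replicate block, pairing libraries by number, 16 ranked lower, 3 higher, and 0 were open in 1 group alone. No share over all open genes is given for the rank counts without a library or with the replicate block. Requiring 100 bp of each gene body left 3 joined pairs in place of 7. Without each library, shared regions between members numbered 91 to 104 and joined pairs 7 to 8. For the 300 bp start window, an alternative chosen after seeing the data, 30 of 50 members were open, 19 closed, 9 lower and 2 higher, against 19.2% lower and 13.7% higher among all open windows. The cause of these shifts was not tested.

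Called intervals give presence and rank, not amounts: a site under the caller's threshold is absent from a list, and read depth is unknown. Reads of near-identical histone genes were taken as the authors placed them. Closed therefore means that no interval was called within 1000 bp.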
